A study of Mus musculus with 6 samples.

Results

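The genes described are 6 rows of the deposited table of mouse hearts: Scn4b, Hcn2, Hcn4, Gja1, Gja5 and Gjc1. They were chosen by name, through the mouse symbols of their Ensembl identifiers, and make up 6 of the 20254 genes listed. They encode an accessory sodium channel subunit, a pair of pacemaker channels and 3 connexins. The RNA came from hearts of 6 adult C57BL/6 mice, 3 of them Trdn-as knockout (KO) and 3 wild type (WT). Trdn-as is a long non-coding RNA named as antisense to Trdn, the gene of the calcium release protein triadin. In each genotype replicates 1 and 2 were 14 months old and replicate 3 was 5 months old, so each genotype had a single heart of the younger age. The labels do not say how the knockout was made or whether any mice were littermates, so the p-values measure the spread between these hearts. The Trdn-as transcript was not analysed here, so its loss was not checked. Its neighbour Trdn had 3429, 3460 and 5606 in KO replicates 1, 2 and 3, against 5702, 5600 and 9104 in WT, lower in KO at each number.

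The electrical impulse of the heart depends on all of these proteins. Voltage-gated sodium channels carry the fast upstroke of the action potential, and their beta subunits, single-span membrane proteins such as the one encoded by Scn4b, bind the pore and alter its gating and surface level. Hyperpolarization-activated cyclic nucleotide-gated (HCN) channels carry the pacemaker current of the sinus node, where HCN4 is the main isoform, while HCN2 is found at lower levels across the working heart. Connexins form the gap junctions through which the impulse passes from cell to cell: Gja1 encodes connexin 43 of ventricular myocytes, Gja5 connexin 40 of atrium, conduction system and arterial endothelium, and Gjc1 connexin 45 of the nodes.

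For the 4 members on which the results below turn, the 250 bases before the RefSeq start (GRCm38.p6, all plus strand) are shown, because Scn4b, Hcn2 and Hcn4 were higher at the older age and Gja1 is the member called in the comparison of the genotype difference between the ages. Capitals mark matches on either strand to a searched motif. The motifs were the T-box letters AGGTGT, the letters GGGCGG known for SP1, the GATA factor letters AGATAA, and the letters TGAGTCA known for AP-1. The letters TNAAGTG known for NKX2-5, the MEF2 letters TAAAAATA and the letters CAGCTG of an E-box were also searched.
Scn4b, chr9:45138374-45138623: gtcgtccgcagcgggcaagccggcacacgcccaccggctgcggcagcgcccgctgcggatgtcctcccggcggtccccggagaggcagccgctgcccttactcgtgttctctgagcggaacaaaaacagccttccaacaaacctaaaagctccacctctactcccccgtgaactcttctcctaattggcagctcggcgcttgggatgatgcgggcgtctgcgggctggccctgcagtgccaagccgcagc
Hcn2, chr10:79716384-79716633: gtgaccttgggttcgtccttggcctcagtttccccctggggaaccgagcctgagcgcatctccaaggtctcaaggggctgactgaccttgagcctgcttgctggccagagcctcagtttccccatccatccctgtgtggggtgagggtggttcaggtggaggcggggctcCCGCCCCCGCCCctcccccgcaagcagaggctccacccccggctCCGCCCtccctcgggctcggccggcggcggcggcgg
Hcn4, chr9:58822699-58822948: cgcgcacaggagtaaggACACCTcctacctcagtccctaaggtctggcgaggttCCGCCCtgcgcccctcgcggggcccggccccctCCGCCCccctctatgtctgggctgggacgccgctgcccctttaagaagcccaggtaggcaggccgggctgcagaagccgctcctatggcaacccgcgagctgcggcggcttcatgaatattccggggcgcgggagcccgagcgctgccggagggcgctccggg
Gja1, chr10:56377050-56377299: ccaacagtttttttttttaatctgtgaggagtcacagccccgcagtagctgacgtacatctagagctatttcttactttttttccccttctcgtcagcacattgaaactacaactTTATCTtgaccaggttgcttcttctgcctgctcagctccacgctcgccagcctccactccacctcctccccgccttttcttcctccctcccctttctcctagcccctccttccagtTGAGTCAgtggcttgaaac

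The Scn4b window held none of the 7 motifs. The gene start in the annotation used for the values, 45138395, falls inside this window, so most of it lies within that annotated gene. The Hcn2 window held 3 SP1 matches, and the Hcn4 window held 2 SP1 matches and 1 T-box match. The Gja1 window held 1 AP-1 match and 1 GATA match. No match overlapped another. Among all 32851 promoter windows of this length, SP1 letters were present in 32.7%, T-box in 11.8%, GATA in 9.99% and AP-1 in 4.46%, while NKX2-5 letters were present in 10.1%, MEF2 in 2.45% and E-box in 13.0%. A match describes letters in the window and not a binding site.

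The values are a normalised gene-level signal and not whole reads, so the read depth behind a value is unknown. The summed signal lay between 19810148 and 21573127 in KO libraries and between 19868549 and 23510139 in WT libraries. Mitochondrially encoded genes took 41.6 to 49.4% of the signal in KO and 40.0 to 45.6% in WT. Y-linked genes summed to 213 to 273 in replicate 2 of both genotypes and to 2652 to 4775 in the other libraries, so replicate 2 read as female. The heart label was borne out by its myocyte genes: the ventricular light chain gene Myl2 had values of 65315 to 189050 and the myosin heavy chain gene Myh6 159955 to 400427 over the 6 libraries. All 6 members passed the filter (a value of 10 in at least 3 libraries) that kept 13823 genes for testing.

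Per kilobase of all annotated exons of a gene, a rough scale for comparing genes, Gja1 was the most abundant member in every library, at 346 to 616. Scn4b followed at 71.3 to 201, above each of the remaining members in every library. Hcn2 (38.4 to 106), Gjc1 (40.7 to 62.1) and Gja5 (29.5 to 43.0) had ranges that overlapped. Hcn4 had the lowest mean level per kilobase, 26.0 over the 6 libraries. Its range ran from 10.4 to 45.8. The Hcn4 range overlapped those of Hcn2, Gjc1 and Gja5.

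**Figure D1:**
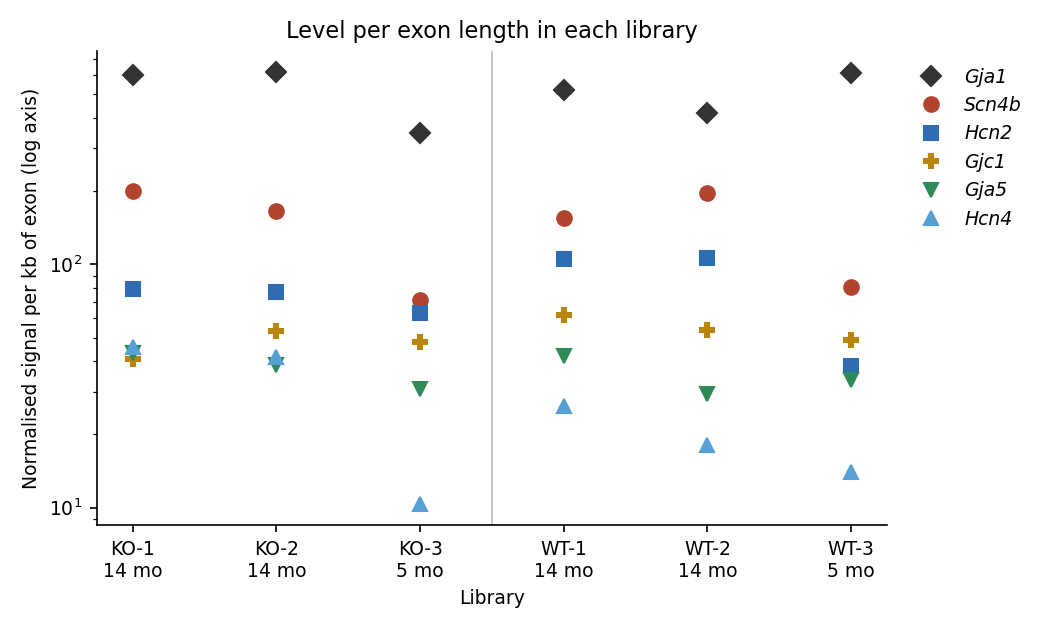
Normalised signal per kilobase of exon (log axis) of the 6 genes in each library, KO left of WT, with the age in months under each name. Gja1 stood highest in every library at 346 to 616, and Hcn4 spanned 10.4 to 45.8, the widest span relative to its level.

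Older hearts had more mRNA of the sodium channel subunit and of both pacemaker channels, and the 3 connexin genes did not pass the test. The comparison of 14 with 5 months used limma on log2(value + 1) with genotype as a covariate, and fold changes are on that scale. Of all genes tested 33.7% passed a Benjamini-Hochberg adjusted p of 0.05, 17.7% higher and 16% lower at 14 months. Among the members 3 of 6 passed, all of them higher. The median difference over the members was 0.56 log2, against 0.02 over all genes tested. The 14-month group mixes replicate 2 with the male-reading replicate 1, while both 5-month libraries read as male, and with one 5-month heart in each genotype a feature of that single heart cannot be told apart from age. In whole hearts, more cells of a type and more RNA per cell cannot be told apart either.

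Scn4b (ENSMUSG00000046480, chromosome 9, 45138395 to 45154152, mm10) had values of 1001, 823, 775 and 982 at 14 months (KO-1, KO-2, WT-1 and WT-2), against 355 and 404 at 5 months (KO-3 and WT-3). The lowest 14-month library stood well above the highest 5-month library, in both genotypes. The mean was 895 ± 113 at 14 months (SD, n = 4) and 380 ± 34.5 at 5 months (SD, n = 2). The fitted difference was 1.23 log2 (SE 0.15), a 2.35-fold higher level (95% interval 1.84 to 2.99), with a limma adjusted p of 0.0012. Scn4b kept its call in all alternatives, with log2 differences of 1.11 to 1.43 and limma adjusted p of 0.0059 or less.

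Hcn4 (ENSMUSG00000032338, chromosome 9, 58823412 to 58863175) had values of 280 and 254 in KO and 161 and 111 in WT at 14 months, against 63.5 in KO and 85.6 in WT at 5 months. All 14-month libraries lay above both 5-month libraries, but the gap was wide in KO and narrow in WT. The mean was 201 ± 79.0 at 14 months (SD, n = 4) and 74.5 ± 15.6 at 5 months (SD, n = 2). The fitted difference was 1.35 log2 (SE 0.32), or 2.54-fold (95% interval 1.53 to 4.23, limma adjusted p = 0.0148). Without KO replicate 3 it was 0.64 log2 and did not pass (limma adjusted p = 0.0993), and without WT replicate 3 it was 2.05 log2. Over the alternatives the log2 differences lay between 0.64 and 2.05.

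Hcn2 (ENSMUSG00000020331, chromosome 10, 79716634 to 79736108) had values of 254 and 245 in KO and 335 and 339 in WT at 14 months, against 201 in KO and 123 in WT at 5 months. Again no 14-month library fell into the 5-month range, and for this gene the gap was wide in WT and narrow in KO. The mean was 293 ± 50.7 at 14 months (SD, n = 4) and 162 ± 55.3 at 5 months (SD, n = 2). The fitted difference was 0.88 log2 (SE 0.24), or 1.84-fold (95% interval 1.25 to 2.72, limma adjusted p = 0.0262). Without WT replicate 3 it was 0.31 log2 (limma adjusted p = 0.167), without KO replicate 3 it was 1.45 log2 and passed, and without WT replicate 1 or 2 it was 0.80 log2 each (limma adjusted p = 0.0715 and 0.0651). The alternatives spanned adjusted p-values of 0.00108 to 0.167. In replicates 1 and 3 alone, which all read as male, the differences were 1.21 log2 for Scn4b, 0.89 for Hcn2 and 1.51 for Hcn4. That set holds 1 library per genotype and age. Its p-values rest mostly on spread pooled over genes and are not given.

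The connexin genes had age differences of 0.22 log2 for Gja1 (95% interval -0.35 to 0.79), 0.24 for Gja5 (-0.20 to 0.68) and 0.10 for Gjc1 (-0.30 to 0.49). Their limma adjusted p-values were 0.531, 0.361 and 0.692. The upper bounds correspond to 1.72-fold, 1.60-fold and 1.41-fold, so an increase of the size fitted for Scn4b lies outside these intervals. The intervals take the age difference as equal in KO and WT, where Gja1 had 0.82 and -0.38 log2. Gja1 turned on the 5-month libraries: its age difference was -0.38 log2 without KO replicate 3 and 0.82 log2 without WT replicate 3, where it passed (limma adjusted p = 0.00564).

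**Figure D2:**
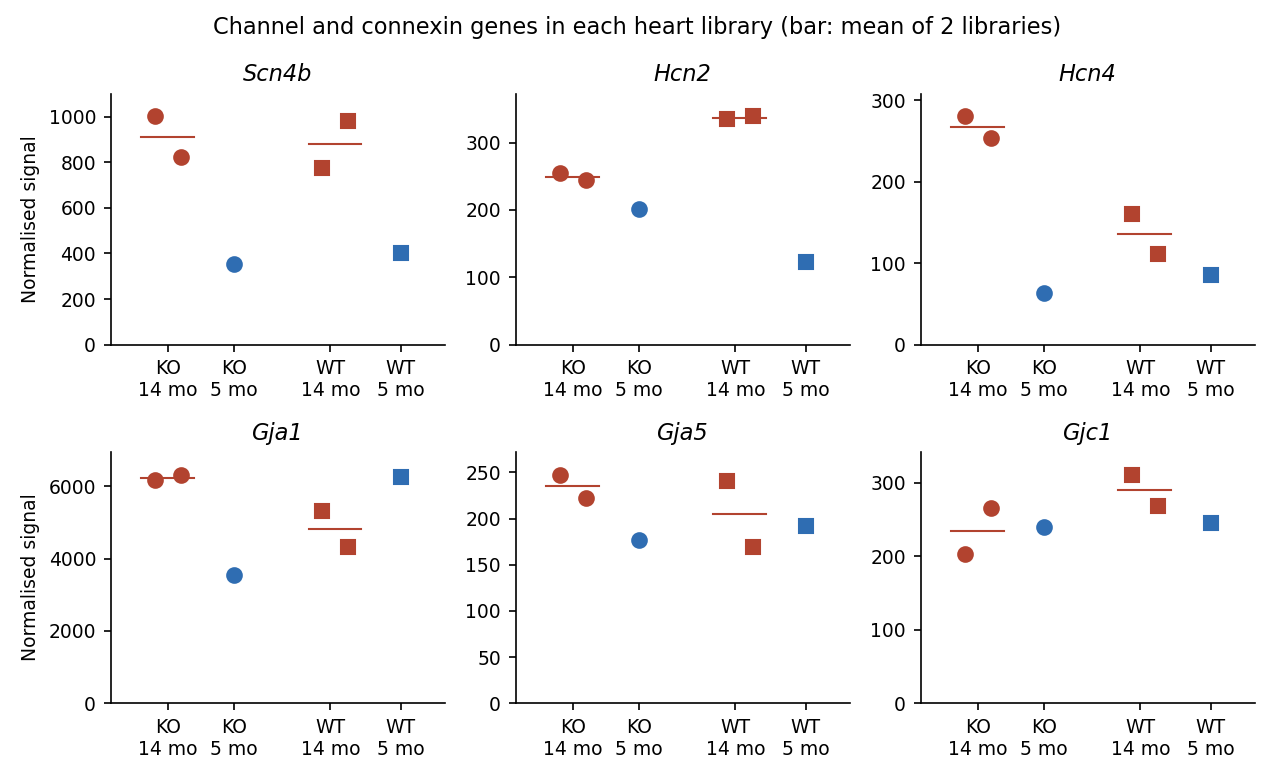
Normalised signal (linear axis from 0) of each gene in the 6 libraries, KO (circles) left of WT (squares), 14 months in red and 5 months in blue, with a bar at the mean of the 2 libraries of 14 months. Scn4b stood at 775 to 1001 at 14 months and at 355 and 404 at 5 months in both genotypes, while Hcn2, Hcn4 and Gja1 had different age gaps in KO and WT.

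No member passed the comparison of KO with WT, in which 0% of all genes tested passed (841 genes had an unadjusted limma p under 0.05, and limma-voom also called 0). This comparison asks whether hearts without Trdn-as hold other levels of the channel and gap junction transcripts, with age as a covariate. Trdn, lower in KO at each replicate number, did not pass either, so a missing call here does not show equal levels. The members' differences were 2 above and 4 below 0, with a median of -0.02 log2, equal to the median of -0.02 over all genes tested.

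Scn4b had 1001, 823 and 355 in KO hearts, against 775, 982 and 404 in WT hearts, in the order of replicates 1, 2 and 3. The genotypes overlapped throughout. The mean was 727 ± 334 in KO and 720 ± 293 in WT (SD, n = 3 each), a spread that is mostly that between the ages. The difference was -0.02 log2 (SE 0.14, limma adjusted p = 0.966), with a 95% interval of 0.78 to 1.24-fold.

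Gjc1 (ENSMUSG00000034520, chromosome 11, 102799579 to 102819700, minus strand) had 203, 266 and 240 in KO, against 311, 269 and 245 in WT. Each KO library was below the WT library of its number, by 0.61, 0.02 and 0.03 on the log2 scale, but the numbers are not pairs. KO minus WT was -0.31 log2 between the 14-month means and -0.03 log2 between the 5-month libraries. The mean was 236 ± 31.3 in KO and 275 ± 33.4 in WT (SD, n = 3 each), and the fit gave -0.22 log2 (SE 0.16, limma adjusted p = 0.751).

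Gja5 (ENSMUSG00000057123, chromosome 3, 96904693 to 97077416) had 247, 223 and 176 in KO, against 241, 169 and 192 in WT. The groups overlapped, and the difference was 0.10 log2 (SE 0.18, limma adjusted p = 0.878). Of its 31-base words, 16.6% also occur in transcripts of other genes, most often Zfp697, and an exon of it overlaps an exon of Gpr89 on the other strand. Counting by Salmon could divide such reads among the genes, so the level of Gja5 is less certain than that of the other members, of which at most 1.35% of words are shared.

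Hcn4, Hcn2 and Gja1 had genotype differences of 0.52 (SE 0.30), -0.05 (SE 0.23) and -0.02 log2 (SE 0.23), with limma adjusted p-values of 0.745, 0.955 and 0.985. These averages cover differences of opposite sign at the 2 ages, given next. None of the members passed in any of the alternatives for this comparison, 14-month libraries alone included.

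**Figure D3:**
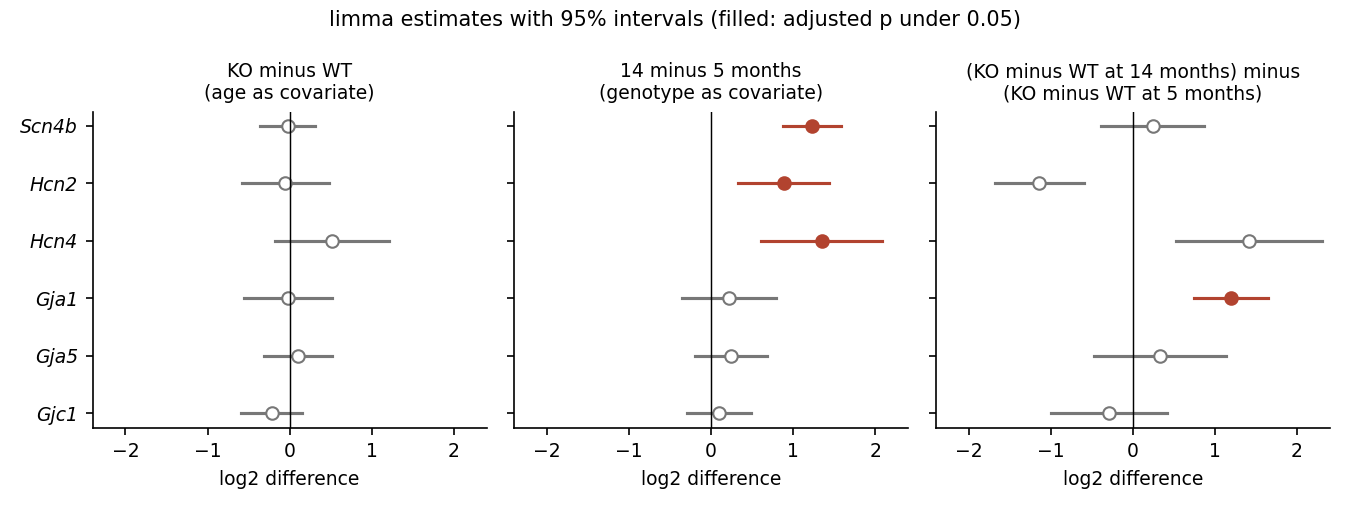
Log2 differences of the 6 genes with 95% intervals, not adjusted for multiple testing, in the comparison of KO with WT, of 14 with 5 months, and of the genotype difference between the ages. Scn4b, Hcn2 and Hcn4 passed by age (1.23, 0.88 and 1.35), Gja1 passed in the interaction (1.20), and no gene passed by genotype.

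Gja1 passed the test of whether the genotype difference is the same at both ages, but the younger side of that test is 1 KO and 1 WT heart, and the call was lost in each of the 4 fits that left out a 14-month library. Hcn2 and Hcn4 had estimates of similar size that did not pass. The interaction is the difference of KO minus WT at 14 months less that at 5 months, and 2.08% of all genes tested passed it (1.19% above 0 and 0.883% below). Of the 6 members 1 passed, Gja1. The members' median was 0.29 log2, against 0.05 over all genes. The error of this test comes from the 14-month pairs alone, so a feature of either single 5-month heart cannot be told apart from an effect of age on the genotype difference. The 14-month side also mixes male-reading replicate 1 with replicate 2, which read as female, while both 5-month libraries read as male.

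Gja1 (ENSMUSG00000050953, chromosome 10, 56377330 to 56402513) had 6169 and 6317 in KO, against 5319 and 4309 in WT at 14 months. At 5 months it had 3545 in KO, against 6249 in WT. Both KO libraries of 14 months were above both WT libraries of that age, and the 5-month KO heart was the lowest of the 6 libraries. KO held 130% of the WT mean at 14 months and 56.7% of the WT value at 5 months. The interaction was 1.20 log2 (SE 0.19, 95% interval 0.75 to 1.65, limma adjusted p = 0.0362). Leaving out any one of the 4 libraries of 14 months ended the call, with estimates of 1.05 to 1.35 log2 and limma adjusted p of 0.0547 to 0.0985. The call was also lost without the filter (1.20 log2, limma adjusted p = 0.142) and with quantile normalization (0.94 log2, limma adjusted p = 0.0742).

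Several marker lists leaned to the same side of 0 as Gja1, beside 7383 of all 13823 genes with an interaction above 0 and a median of 0.05 log2. Of 12 cardiomyocyte markers tested, 11 had an interaction above 0, with a median of 0.53 log2, and 2 passed, Myh6 (1.26, limma adjusted p = 0.032) and the cardiac actin gene Actc1 (1.61, limma adjusted p = 0.0109). The summed level of the 12 markers was 721828 and 831908 in KO and 775363 and 808380 in WT at 14 months, against 852608 in KO and 1349436 in WT at 5 months. None of the 12 was at 0. Fibroblast markers (9 of 10 above 0, median 0.59, 2 passed) and adipocyte markers (8 of 9 above 0, median 1.78, 3 passed) were also mostly above 0. So were atrial markers (11 of 11, median 0.37), smooth muscle and pericyte markers (8 of 10, median 0.53) and blood genes (6 of 6, median 1.32), of which 0 passed. The fibroblast list summed to 40193 and 36444 in KO and 37987 and 41401 in WT at 14 months, against 19283 in KO and 34338 in WT at 5 months. The adipocyte list summed to 79909 and 81747 in KO and 90004 and 81934 in WT at 14 months, against 64033 in KO and 135061 in WT at 5 months. None of their genes was at 0 in all libraries, and the part of these cells in the Gja1 result was not tested.

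Hcn4 in KO was 196% of WT at 14 months (267 ± 18.8 in KO and 136 ± 35.2 in WT, SD, n = 2 each) and 74.2% of WT at 5 months. Hcn2 in KO was 74.0% of WT at 14 months (250 ± 6.60 in KO and 337 ± 2.55 in WT, SD, n = 2 each) and 164% of WT at 5 months. The pacemaker genes thus parted in opposite directions in every replicate number: Hcn4 differed by 0.80, 1.18 and -0.43 log2 in replicates 1, 2 and 3, and Hcn2 by -0.40, -0.47 and 0.71. The interaction was 1.41 log2 for Hcn4 (SE 0.38, limma adjusted p = 0.0938) and -1.14 log2 for Hcn2 (SE 0.23, limma adjusted p = 0.0587), neither past the threshold. In a fit of the 14-month libraries alone the KO minus WT difference was 0.99 log2 for Hcn4 (limma adjusted p = 0.349) and -0.43 log2 for Hcn2 (limma adjusted p = 0.618).

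The ratio of Hcn4 to Hcn2 within a library does not depend on how libraries are scaled. Per kilobase it was 0.575 and 0.541 in KO, against 0.251 and 0.171 in WT at 14 months, and 0.165 in KO, against 0.364 in WT at 5 months. Both older KO hearts had the highest share of Hcn4 relative to Hcn2, and the younger KO heart the lowest. Per kilobase Hcn2 remained the more abundant of the pair in every library. Without the division by exon length Hcn4 was above Hcn2 in both 14-month KO libraries, at 280 against 254 in KO-1 and 254 against 245 in KO-2. The ratio of Hcn4 to Hcn2 was formed after the values were seen and was not tested.

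The interaction estimates of Scn4b, Gja5 and Gjc1 were 0.24 (SE 0.27), 0.34 (SE 0.34) and -0.29 log2 (SE 0.30), with limma adjusted p-values of 0.629, 0.598 and 0.610. Scn4b thus had age differences of 1.35 log2 in KO and 1.11 log2 in WT. The ratio of Gja5 to Gja1 per kilobase stayed between 0.0548 and 0.0888 over the 6 libraries, and that of Gjc1 to Gja1 between 0.0676 and 0.139, so connexin 43 mRNA was by far the main connexin among the 3 in each heart.

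Markers of several cell types differed between the ages as well. Cardiomyocyte markers had 1 of 12 higher and 5 of 12 lower at 14 months, and summed to 721828 to 831908 at 14 months, against 852608 in KO and 1349436 in WT at 5 months. Endothelial markers had 7 of 12 higher and 1 lower, fibroblast markers 5 of 10 higher and 1 lower, and smooth muscle and pericyte markers 4 of 10 higher and 0 lower. The endothelial list summed to 20769 to 26291 at 14 months, against 14474 in KO and 16787 in WT at 5 months, and the smooth muscle and pericyte list to 22711 to 25920 at 14 months, against 15518 in KO and 20666 in WT at 5 months. The conduction system list, which holds Hcn4, summed to 3902 and 4682 in KO and 3358 and 3655 in WT at 14 months, against 1963 in KO and 2524 in WT at 5 months, and 7 of its 16 tested genes rose and 0 fell. None of its 18 genes was at 0 in all libraries, but Isl1, a transcription factor of the sinus node, stayed at 3.46 or less and Shox2 at 34.4 or less. The atrial list moved the other way: it summed to 19411 to 33154 at 14 months, against 45582 in KO and 70855 in WT at 5 months, and 5 of 11 fell while 2 rose. Arterial endothelial markers, which include the connexin genes Gja5 and Gja4, summed to 6842 to 8333 at 14 months, against 4048 in KO and 4683 in WT at 5 months. Of the 12 markers 6 were higher, Gja4 among them and Gja5 not, and 0 were lower. The part of these cell mixtures in the member results was not tested.

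Among the relatives and partners of the members, genes called by age made up 5 of 9 tested in the sodium channel family, 2 of 8 in the connexin and pannexin family, 4 of 16 sodium channel partners, 3 of 8 HCN partners, 5 of 18 connexin partners and 11 of 18 transcription factors, beside 33.7% of all genes tested. These families include members: Scn4b in the sodium channel count and Gja1, Gja5 and Gjc1, none of them called, in the connexin count. The connexin and pannexin family, the sodium channel partners and the connexin partners were below the share of all genes. Of 14 genes of the sodium channel family 9 were tested, of which 4 rose and 1 fell at 14 months. Scn4a, the pore of the skeletal muscle sodium channel, stood at 661 and 560 in KO and 539 and 554 in WT at 14 months, against 179 in KO and 99.9 in WT at 5 months (2.10 log2, SE 0.18, limma adjusted p = 0.000346). Scn3a, a pore subunit best known from the developing nervous system, fell by 2.09 log2 (SE 0.29, limma adjusted p = 0.00178), to 18.4 to 27.8 at 14 months, against 116 in KO and 98.9 in WT at 5 months. The groups by age did not overlap for either gene. Scn3b (0.75), Scn2a (0.23), Scn7a (0.17) and Scn10a (0.08) did not pass.

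Of 23 listed connexin and pannexin genes, 20 had a row and 8 were tested. Gja4, connexin 37 of arterial endothelium, rose (0.74 log2, SE 0.19, limma adjusted p = 0.0196), and Gja3, connexin 46, best known from the lens, fell (-0.81 log2, SE 0.17, limma adjusted p = 0.00822). Gja3 had 217 and 247 in KO and 192 and 197 in WT at 14 months, against 489 in KO and 286 in WT at 5 months. The call of Gja4 was lost without KO replicate 2, WT replicate 2 or WT replicate 3 (limma adjusted p of 0.0507, 0.0588 and 0.0849). That of Gja3 was lost with scaling to the total without mitochondrially encoded genes (-0.62 log2, limma adjusted p = 0.051). In replicates 1 and 3 alone the Gja4 difference was 0.655 log2. Panx1 (0.94), Panx2 (0.65) and Gjc3 (-0.52) did not pass.

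Among proteins that bind or traffic sodium channels, 1 of 16 tested genes rose and 3 fell with age. The ubiquitin ligase gene Nedd4l rose by 0.50 log2 (SE 0.13). Rangrf, which aids delivery of sodium channels to the membrane, fell by 0.99 (SE 0.17), the caveolin gene Cav3 fell by 0.73 (SE 0.15), and Fgf12, a fibroblast growth factor homologous factor that binds sodium channels, fell by 0.78 (SE 0.25). Of 8 HCN partners tested 3 rose, namely Kctd3 (1.06), Mrvi1 (0.68) and Nedd4l, which stands in both lists. In replicates 1 and 3 alone the differences were 0.516 log2 for Nedd4l and -0.504 log2 for Fgf12. Leaving out 1 library ended some of these calls: Nedd4l without KO replicate 1 or WT replicate 2 (limma adjusted p of 0.0606 and 0.0551), Mrvi1 without WT replicate 3 (0.0628), and Fgf12 without KO replicate 2 or any one WT replicate (0.0703 to 0.291).

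Of 18 connexin partners tested 5 rose and 0 fell. The junction genes Jup (plakoglobin, 1.36 log2, SE 0.13) and Cdh2 (N-cadherin, 0.72) and the kinase gene Csnk1d (0.69) were among those that rose. The Csnk1d difference was 0.546 log2 in replicates 1 and 3 alone. Cdh2 was at 0.39 log2 and no longer passed without KO replicate 3 (limma adjusted p = 0.0669). Of 18 transcription factors of the heart and conduction system 10 rose and 1 fell, with a median of 0.75 log2. The leading ones were Nkx2-5 (0.93), Irx4 (1.24), Irx3 (0.97) and Etv1 (1.07), a factor of fast-conducting myocytes. In all these lists 0 genes passed between KO and WT.

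**Figure D4:**
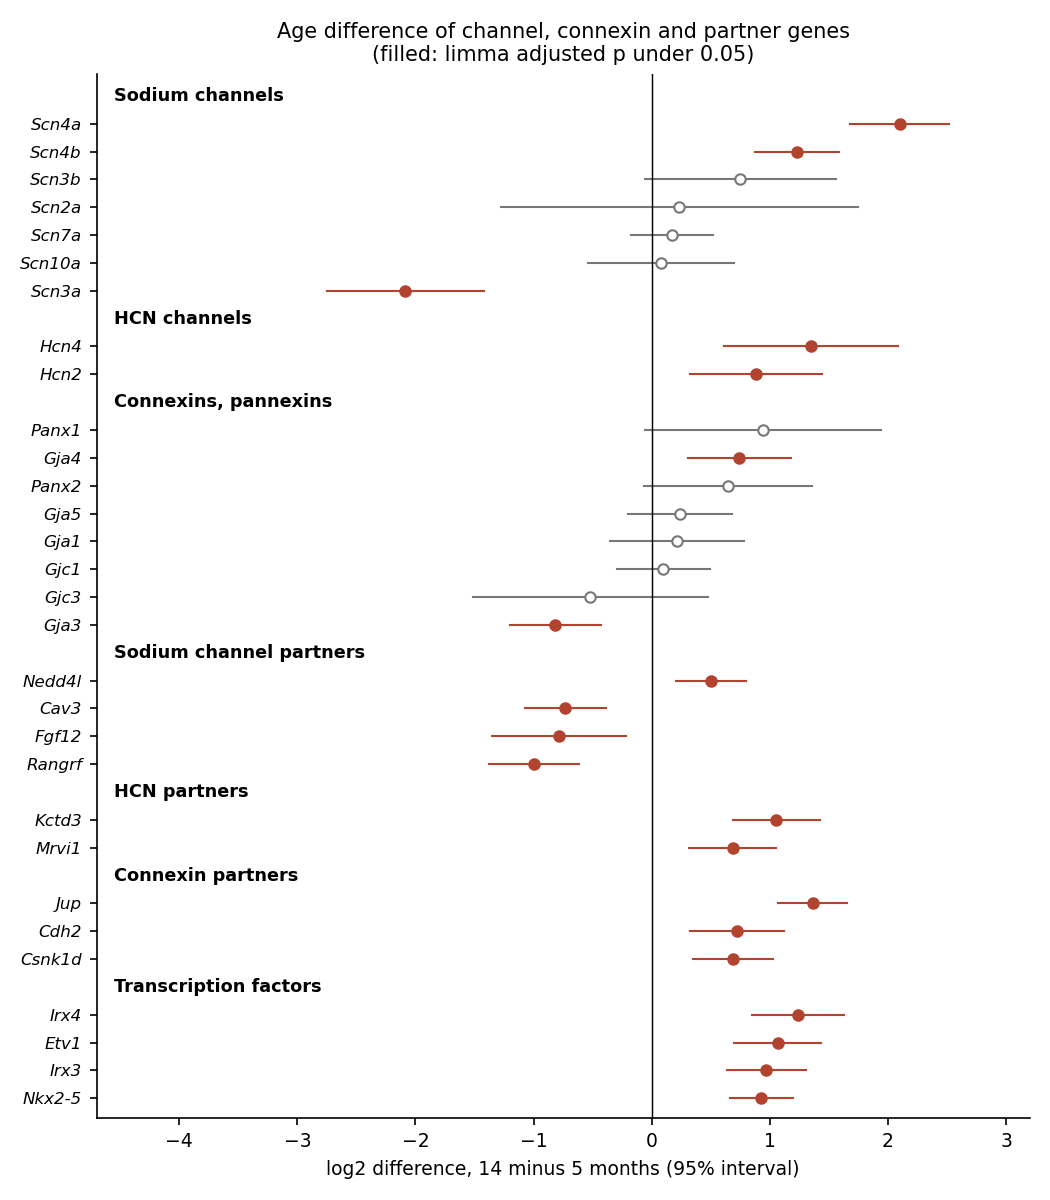
Log2 difference of 14 minus 5 months with 95% intervals for the named members, relatives and partners, filled where the limma adjusted p was under 0.05. Scn4a (2.10) and Scn3a (-2.09) stood at the ends of the sodium channel genes shown, and the connexin genes shown lay between -0.81 (Gja3) and 0.74 (Gja4).

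Over the 6 libraries, which share their scaling and their age split, the genes whose log2 levels ran most like the members were named by Pearson's r over all genes tested, as a description. For Scn4b they were Slc27a4 (0.999), Trim27 (0.998) and Pnpla2 (0.997), for Hcn2 Ctns (0.996), Stat6 (0.993) and Cul9 (0.992), and for Hcn4 Rftn2 (0.995), Myo18b (0.992) and Fam19a5 (0.991). For Gja1 they were Msmo1 (0.996), Rnf185 (0.990) and Abca4 (0.982), for Gja5 Pcsk5 (0.990), Cpa3 (0.981) and Cul3 (0.980), and for Gjc1 Kmt5c (0.984), Herc4 (0.966) and Slc17a9 (0.962). Among the members themselves the closest pairs were Hcn4 with Gja5 (0.824) and Hcn4 with Scn4b (0.802), and Hcn2 with Gja1 stood lowest at -0.22.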

How the data were processed

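RNA of whole frozen hearts (Trizol) was sequenced from Illumina libraries of total RNA, per the labels' protocols. Salmon 1.5.2 and mm10 are named in the submitters' processing notes; the remaining steps are not stated there. The authors deposited a normalised gene-level signal: values are not whole, each library's median ratio to the per-gene geometric mean was 1.00 to 1.01, and 8.11 to 12.1% of values under 20 lay within 0.01 of a whole step, so reads were not recovered. Of 20254 identifiers 20146 matched GENCODE M21 (GRCm38); the other 108 could not be named, and 108 broken lines were left out. limma 3.58.1 in R 4.3.3 was fitted on log2(value + 1) with trend and robust options, genotype and age as terms, and Benjamini-Hochberg adjustment over 13823 genes (a value of 10 in 3 libraries; threshold 0.05). The fit was tested on simulated data.

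Members and lists were chosen with earlier results of these data known. Named genes were the members, tested relatives, up to 4 called genes of each partner list (or its 2 most abundant) and the 3 genes most like each member; 4 of the genes so named are not reported here. Promoter letters are from RefSeq, which gave 5 of 6 members. Alternatives were other pseudocounts, filters, scalings, limma-voom, a replicate block, and fewer libraries. Deviations of same-numbered libraries from their genotype mean correlated at 0.390, 0.383 and 0.617, but crossed pairs at 14 months at 0.369 and 0.382 and, from the mean at 14 months, same numbers at 0.015, so the numbers follow age and were not used as pairs. At most 5.46% of genes lay within 1% in any pair of libraries, so none was treated as a duplicate.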

Additional observations from a re-analysis of the deposited data

Results flagged for a closer look

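Gja1 was singled out because the difference between KO and WT hearts passed the test of a change between 14 and 5 months: KO minus WT at 14 months exceeded that at 5 months by 1.20 log2 (limma adjusted p = 0.0362, 0.036 to 0.142 over the alternatives). The KO library was above the WT library of its number in replicates 1 and 2 (0.21 and 0.55 log2) and below it in replicate 3 (-0.82 log2). The 5-month side rests on one heart of each genotype, and the call was lost without any one of the 14-month libraries.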

How the results depend on the processing

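Genes called between KO and WT numbered 14 in 14-month libraries only, 39 in replicates 1 and 3 only, and 0 to 5 without one library, against 0 as reported. By age, 3011 passed in replicates 1 and 3 only, against 4663. That set holds 1 library per genotype and age, so its counts rest mostly on spread pooled over genes. For the interaction 287 passed as reported (165 above and 122 below 0), 4 with no filter, 12 with quantile normalization, 134 with limma-voom, 750 with scaling to the total without mitochondrially encoded genes (115 above and 635 below) and 13 to 234 without one library. Members called in the interaction numbered 1 as reported, 0 with no filter, quantile normalization or any one library left out, and 2 with the mitochondrial scaling (Hcn2, -1.41 log2, limma adjusted p = 0.0308, and Gja1). That scaling moved the median of all genes by age from 0.02 to 0.22 log2 (calls 3403 higher and 1233 lower, against 2447 and 2216) and in the interaction from 0.05 to -0.22; relative to these medians Scn4b, Hcn2 and Hcn4 stood at 1.21, 0.86 and 1.32 by age, and Gja1 at 1.15 in the interaction.

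Differences near 0 changed sign. Between KO and WT the mitochondrial scaling gave 0.083 for Scn4b, 0.052 for Hcn2 and 0.089 for Gja1, quantile normalization 0.10 for Gja1, 14-month libraries only 0.058 for Scn4b and 0.38 for Gja1, and replicates 1 and 3 only 0.092 for Scn4b, 0.155 for Hcn2 and -0.041 for Gja5. Without one library the ranges were -0.144 to 0.058 for Scn4b, -0.433 to 0.071 for Hcn2, -0.218 to 0.383 for Gja1 and -0.073 to 0.22 for Gja5. By age they were -0.38 to 0.82 for Gja1, -0.047 to 0.24 for Gjc1, -0.57 to 1.04 for Scn2a and -0.24 to 0.41 for Scn10a; quantile normalization gave -0.43 for Scn2a and -0.034 for Scn10a. In the interaction the mitochondrial scaling gave -0.029 for Scn4b. The cause was not tested. Of the named relatives and partners, 17 results were lost and 1 was gained by age over single alternatives, Fgf12, Gja4 and Gja3 among those lost. With the replicate block 0 genes passed between KO and WT and the estimates were those of the main comparison (Hcn4 0.52, limma adjusted p = 0.886); it changed no call. The interaction could not be fitted without a 5-month library or in replicates 1 and 3 only. Where values are low, as for Hcn4 at 5 months, counting error is unknown.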
